A study of Mus musculus with 12 samples.

Results

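The genes examined here are 27 genes of GABA signalling, 27 of the 24985 genes counted, taken by symbol from the count table of mouse dorsal hippocampus. They comprise 9 GABA-A receptor subunits, 2 GABA-B receptor subunits, 5 genes of GABA synthesis, vesicle loading, uptake and breakdown, 2 genes of the inhibitory postsynapse, 2 chloride transporters and 7 genes that mark or signal in interneurons. All 27 were counted in every mouse and passed the filter on low counts, which 14742 genes passed in all. Bulk RNA-seq was performed on 12 mice, 3 in each of 4 groups. C57Bl6/J mice 6 months old received a unilateral hippocampal injection of PBS or of 1 µg AD tau, the pathological tau purified from Alzheimer's disease brain, and then lived on a control diet (standard chow from TestDiet) or an acetate diet, which was LabDiet 5001 made with Na-acetate at 5%. The paper states that the diets were given for 6 months after the injection. The age given is thus that at injection and not that at tissue collection. The groups are called tau acetate, tau control, PBS acetate and PBS control after injection and diet. No mouse carried a transgene, the PBS groups received the injection too, all mice were killed a day after remote memory recall, and tissue came from the right hemisphere alone. The study's methods describe the control diet as matched to the acetate diet in calories and made by TestDiet, while the labels call it standard chow.

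GABA is the main inhibitory transmitter of the hippocampus. The enzymes GAD67 and GAD65 make it from glutamate, a vesicular transporter loads it, and after release it opens GABA-A receptors, chloride channels built of several subunits, or acts through GABA-B receptors, which couple to G proteins. Whether an open GABA-A channel inhibits depends on the chloride gradient across the membrane. KCC2 (Slc12a5) steepens it by extruding chloride and so keeping chloride inside the cell low, and NKCC1 (Slc12a2) works against it by importing chloride. GABA is released by interneurons, which make up a minority of hippocampal neurons and are told apart by genes such as Pvalb, Reln, Lhx6 and Lamp5.

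Libraries held 12983233 to 20218340 counts on genes, and 0.418 to 0.459% of these fell on the 27 genes. Excitatory marker Slc17a7 lay between 1368 and 1750 CPM, the normalised count scaled to library size by edgeR's TMM method, in the 12 mice, as a check of the tissue. The labels call the mice male, but Xist had 13583 to 25991 counts in every library and the Y-linked genes checked had 0. PBS control mouse 2 stood apart in 6 marker genes of thalamus, which summed to 297 CPM there, 150 CPM in PBS control mouse 3 and 74.2 to 110 CPM in the other mice. Marker genes of CA1 were higher in PBS acetate (743 to 970 CPM) than in PBS control (477 to 612 CPM), and those of CA3 were lower (230 to 381 against 440 to 531 CPM). The part of these differences in the results that follow was not tested beyond the values given beside them.

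The genes of the GABA-A receptor lie partly in clusters. On chromosome 5 (GRCm38) Gabrg1 (70751047 to 70842617, minus strand) is followed by Gabra2 (70957597 to 71095849, minus strand) at a distance of 114979 bases, then by Gabra4 and Gabrb1, which run in opposite directions and overlap by 196 bases at their starts. On chromosome 7, Gabrg3 and Gabra5 are 20483 bases apart on the same strand. The reads were counted by strand. The promoters of Gabrg1 and Reln are shown because these are the 2 members that rose on the acetate diet in PBS-injected mice, and that of Gabra2 because it is the neighbour of Gabrg1 and was not called. Each is the 250 bases before the RefSeq start (GRCm38.p6), 5′ to 3′ on the minus strand. Capitals mark GC boxes (GGGCGG), the E-box (CACGTG) and the CCAAT box, each searched on both strands, so that ATTGG is a CCAAT box on the other strand. TGACGTCA and TATAAA were searched too and were not found in these 3 windows.
Gabrg1 (chr5:70842618-70842867): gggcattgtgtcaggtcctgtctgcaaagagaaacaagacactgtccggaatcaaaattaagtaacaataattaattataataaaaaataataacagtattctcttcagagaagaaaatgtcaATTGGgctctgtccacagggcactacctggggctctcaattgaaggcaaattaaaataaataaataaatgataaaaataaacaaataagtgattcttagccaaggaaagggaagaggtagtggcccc
Gabra2 (chr5:71095850-71096099): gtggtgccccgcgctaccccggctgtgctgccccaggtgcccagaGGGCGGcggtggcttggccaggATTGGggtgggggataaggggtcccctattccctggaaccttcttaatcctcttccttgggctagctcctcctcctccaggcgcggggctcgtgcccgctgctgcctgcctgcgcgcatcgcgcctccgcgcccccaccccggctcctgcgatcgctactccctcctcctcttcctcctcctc
Reln (chr5:22344706-22344955): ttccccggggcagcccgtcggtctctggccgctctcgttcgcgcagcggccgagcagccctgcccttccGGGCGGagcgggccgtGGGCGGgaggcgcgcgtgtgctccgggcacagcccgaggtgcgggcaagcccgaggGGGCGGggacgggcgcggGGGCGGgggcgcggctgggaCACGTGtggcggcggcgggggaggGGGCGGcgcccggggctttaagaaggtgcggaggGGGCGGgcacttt
The Gabrg1 window had a GC content of 35.6% and a single CG dinucleotide, below the median of 52.4% over 32851 promoter windows of the same length. Its only match was 1 CCAAT box. The Gabra2 window had 70.0% GC and 18 CG dinucleotides, with 1 GC box and 1 CCAAT box. The Reln window had 80.0% GC and 37 CG dinucleotides, with 6 GC boxes and 1 E-box. Among all windows, 32.7% held a GC box, 33.8% a CCAAT box, 6.02% an E-box, 12.4% TATAAA and 1.55% TGACGTCA. A match describes letters and was not tested as a binding site.

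To compare levels between genes, CPM was divided by the summed length of all annotated exons of each gene, giving CPM per kilobase. The transcripts in use in this tissue were not determined. The order of the genes, and the shares given after it, depend on this length, which was 23738 bases for Reln and 2974 for Gabra5. The most abundant member was Gabbr1, a GABA-B subunit, at 97.6 ± 5.6 CPM per kilobase (SD, n = 12), a level above that of 97.9% of 14608 genes. Next came Gabra5, the α5 subunit typical of hippocampal extrasynaptic receptors, at 91.4 ± 4.87, and the chloride extruder Slc12a5 at 82.7 ± 3.34 CPM per kilobase. The ranges of Gabbr1 and Gabra5 overlapped over the 12 mice, so that their order is not resolved. Gabbr2, the partner of Gabbr1 in the GABA-B receptor, had 55.9 ± 3.7 CPM per kilobase, and the ranges of these 2 subunits did not overlap. Gabrb2, Nlgn2 and Gad1 followed at 47.7, 44.9 and 44.2 CPM per kilobase, with overlapping ranges. Abat, Gad2, Slc32a1, Pvalb, Gphn, Slc6a11 and Gabra4 lay between 22.2 and 31.6, and Gabra2, Lamp5 and Gabrd between 11.4 and 13.5 CPM per kilobase. Gabra3, the importer Slc12a2 and Kit lay between 8.15 and 9.53, and Erbb4 at 5.82 CPM per kilobase. The lowest 6 were Lhx6 (3.58), Reln (3.12), Gabrb1 (2.89), Dlx1 (2.47), Gabrg1 (2.32) and Gabrg3 (1.78 CPM per kilobase), the last above 26.2% of genes.

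**Figure D1:**
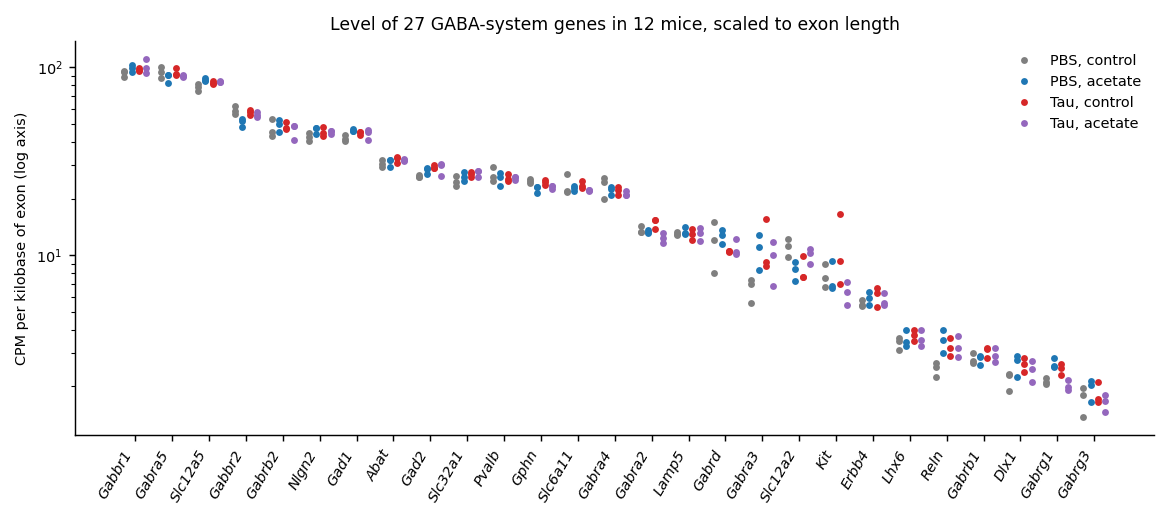
Level of each of the 27 genes in CPM per kilobase of exon on a log axis, 1 point per mouse, coloured by group and ordered by the mean over 12 mice. Gabbr1 was highest at 97.6 and Gabrg3 lowest at 1.78.

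The 4 α subunits among the 27 genes, Gabra2 to Gabra5, were also compared as shares of their summed exon-scaled mRNA, and Gabra5 made up the largest share in every group. Its share was 68.3 ± 2.82% in PBS control, 65.5 ± 1.92% in PBS acetate, 66.1 ± 2.49% in tau control and 67.6 ± 1.62% in tau acetate (SD, n = 3 each), with overlapping ranges. Gabra4 had 15.6 to 17.0% as group means and Gabra2 9.29 to 10.5%. Gabra3 had 4.82 ± 0.749% in PBS control, 8.02 ± 1.85% in PBS acetate, 7.88 ± 2.63% in tau control and 7.16 ± 1.66% in tau acetate. Its PBS control mice (4.01 to 5.49%) overlapped the tau acetate mice (5.36 to 8.62%) but not the other groups. These shares were not tested.

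The spread between mice of a group differed widely among the members. The SD of log2 CPM within groups had a median of 0.09 over the 27 genes, against 0.12 over all genes tested. It was smallest for Slc12a5 (0.04) and Gphn (0.04), and largest for Kit (0.37), Gabra3 (0.36), Gabrd (0.25) and Gabrg3 (0.21). Kit, a receptor tyrosine kinase placed here among the interneuron genes, read 147 CPM in tau control mouse 2 and 48.3 to 82.7 CPM in the 11 other mice. The same mouse was highest for Gabra3, at 61.4 CPM against 21.7 to 49.99 CPM elsewhere. Gabrd, the δ subunit of extrasynaptic receptors on granule cells, ranged from 23.1 CPM in PBS control mouse 1 to 43.2 CPM in PBS control mouse 2, the extremes of all 12 mice. The dentate granule marker list summed to 547 CPM in PBS control mouse 1, the lowest value, and 645 to 876 CPM elsewhere. Its part in the Gabrd value was not tested.

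The first comparison asked what the acetate diet changed in mice without tau. Of the 27 genes, 4 were called by edgeR's quasi-likelihood test at a Benjamini-Hochberg adjusted p below 0.1, Gabrg1 and Reln higher and Gabbr2 and Slc12a2 lower. Of all genes tested, 8.84% were called, 3.99% higher and 4.85% lower. Before adjustment 10 of the 27 had p below 0.05, 7 of them higher, against 20.8% of all genes. The groups of 3 did not overlap for 9 of the 27, 6 higher and 3 lower, against 26.3% of all genes. The median log2 fold change of the 27 was 0.07, and that of all genes was 0.00. As fewer cells of a type and less RNA per cell give the same reading in bulk tissue, the counts do not tell these apart. DESeq2's Wald test called 5 of the 27, the same 4 and Slc12a5, against 9.19% of all genes with an adjusted p from DESeq2.

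Gabrg1 encodes the γ1 subunit, an uncommon subunit of GABA-A receptors, and is found in some neurons and in glia. It read 16.1, 16.7 and 17.4 CPM in PBS control, 22.2, 20.2 and 19.9 in PBS acetate, 18.1, 20.8 and 19.7 in tau control, and 15.1, 15.5 and 16.96 in tau acetate, from 216 to 391 counts per library. Each PBS acetate mouse lay above each PBS control mouse, and each tau acetate mouse lay below each tau control mouse. In PBS-injected mice the acetate diet raised Gabrg1 by 24.1%, a log2 fold change of 0.31 ± 0.09 (SE, adjusted p = 0.0562, edgeR). In tau-injected mice the log2 difference was -0.30 ± 0.09, which was not called (adjusted p = 0.249). The test of the difference of these diet effects gave -0.61 on the log2 scale (95% interval -0.88 to -0.35, adjusted p = 0.0466). Gabrg1 was the single member called there by edgeR. On the acetate diet itself, tau against PBS gave -0.39 ± 0.09 (adjusted p = 0.133), and it was called by DESeq2 (adjusted p = 0.0742) and without tau acetate mouse 3 (adjusted p = 0.099978 by edgeR). These comparisons share mice and are not independent of each other. The rise in PBS-injected mice was not called without PBS control mouse 1 (adjusted p = 0.147), 2 (0.105) or 3 (0.124), or without PBS acetate mouse 1 (0.188) or 2 (0.166). The difference of the diet effects was not called without PBS acetate mouse 2 (adjusted p = 0.146), tau control mouse 2 (0.105) or tau acetate mouse 1 (0.138), while its value stayed between -0.67 and -0.56 over the 12 omissions. Of 7 astrocyte markers, 2 were higher and 1 lower in PBS acetate than in PBS control, with sums of 4812 to 5294 against 4751 to 5018 CPM and none at 0. Their part in the Gabrg1 reading was not tested.

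**Figure D2:**
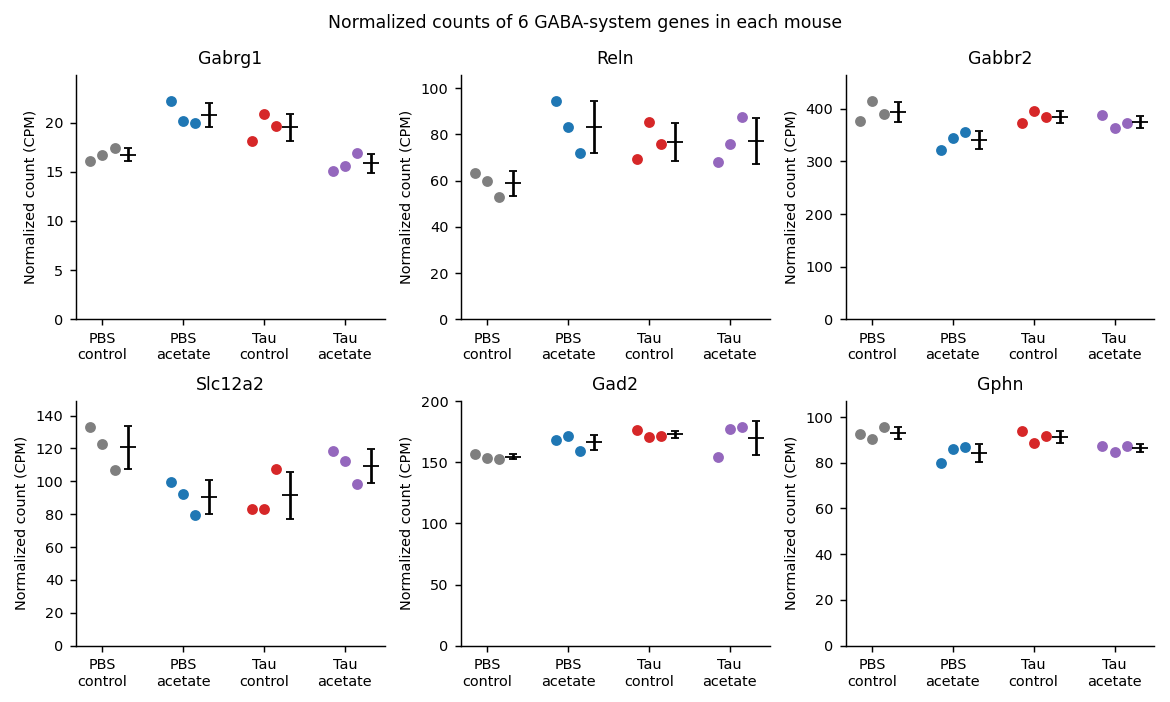
Normalised counts (CPM, axis from 0) of the 4 called genes and of Gad2 and Gphn in each mouse, with the mean and SD of each group of 3 to its right. Gabrg1 was 16.1 to 17.4 in PBS control and 19.9 to 22.2 in PBS acetate, and 15.1 to 16.96 in tau acetate.

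The other 8 GABA-A subunits among the 27 were not called in any comparison by edgeR in the fit over 12 mice. Gabra2, whose α2 subunit sits at synapses on the axon initial segment, read 105, 118 and 117 CPM in tau control and 88.8, 100 and 94.0 CPM in tau acetate, with no overlap. The log2 difference was -0.26 ± 0.06 (adjusted p = 0.168 by edgeR). It was called without tau control mouse 1 or tau acetate mouse 2, without the filter on low counts, and by DESeq2 (adjusted p = 0.0276). In PBS-injected mice Gabra2 was 104 ± 4.59 CPM on the control diet and 102 ± 2.1 CPM on acetate (SD, n = 3 each). Gabra3 read 27.7, 28.9 and 21.7 CPM in PBS control and 49.99, 43.6 and 32.6 CPM in PBS acetate. Its groups did not overlap, with a log2 difference of 0.69 ± 0.29 and an adjusted p of 0.226 by edgeR, and its interval ran from 0.02 to 1.36. In a fit of these 6 mice alone it was called (adjusted p = 0.064). Against the same PBS control mice, tau control was 0.76 ± 0.30 higher on the log2 scale (adjusted p = 0.468). Gabra5 was 281 ± 19.4 CPM in PBS control and 261 ± 15.2 CPM in PBS acetate, and its 3 tau acetate mice (265 to 269 CPM) lay just below the 3 tau control mice (271 to 293 CPM). Gabra4 lay between 129 and 142 CPM as group means, Gabrb1 between 38.6 and 42.3, Gabrb2 between 292 and 314, Gabrg3 between 19.6 and 23.2 and Gabrd between 30.1 and 36.2 CPM. The highest values of Gabra4 (157 CPM), Gabrb2 (338 CPM) and Gabrd (43.2 CPM) were all in PBS control mouse 2, the library with the highest thalamus markers. The other GABA-A subunits among the 27 were highest in other mice. The part of thalamus in these values was not tested.

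The GABA-B receptor needs both its subunits at the cell surface, Gabbr1 to bind GABA and Gabbr2 to couple to the G protein. Gabbr2 read 377, 415 and 391 CPM in PBS control, 322, 345 and 356 in PBS acetate, 374, 395 and 385 in tau control, and 388, 364 and 373 in tau acetate. The 3 PBS acetate mice were the lowest of all 12. Gabbr2 fell by 13.5% on the acetate diet in PBS-injected mice, a log2 fold change of -0.21 ± 0.05 (SE, adjusted p = 0.0376 by edgeR). In tau-injected mice the log2 difference was -0.04 ± 0.05 (adjusted p = 0.862), and the test of the difference of the diet effects gave 0.17 ± 0.07 (adjusted p = 0.323). The PBS acetate mice did not overlap the tau acetate mice either, with a log2 difference of 0.14 ± 0.05 for tau against PBS (adjusted p = 0.361). PBS control mouse 2, high in thalamus markers, was the highest mouse. Without it the log2 value in PBS-injected mice was -0.17 (adjusted p = 0.104), without PBS control mouse 3 -0.22 (0.104), without PBS acetate mouse 1 -0.17 (0.156) and without PBS acetate mouse 2 -0.21 (0.157). Gabbr1 was 721 ± 28.2 CPM in PBS control, 771 ± 32.8 in PBS acetate, 752 ± 13.2 in tau control and 786 ± 69.6 in tau acetate (SD, n = 3 each), with no call.

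The 5 genes that make, load, clear and degrade GABA gave no call in any comparison by edgeR or DESeq2. At most 1 of the 5 had p below 0.05 before adjustment in any comparison. Gad2 (GAD65, the enzyme of nerve terminals) had the smallest p among them. It read 157, 153 and 153 CPM in PBS control, 168, 171 and 159 in PBS acetate, 176, 171 and 171 in tau control, and 154, 177 and 179 in tau acetate. The PBS control mice lay below all PBS acetate and all tau control mice, while tau acetate mouse 1 fell among them. On the control diet tau against PBS gave 0.16 ± 0.06 on the log2 scale (adjusted p = 0.371 by edgeR). Gad1 (GAD67, the enzyme of most GABA synthesis) was 319 ± 11.3 CPM in PBS control and 352 ± 4.58 CPM in PBS acetate, again with no overlap. Its log2 difference of 0.14 ± 0.05 had an adjusted p of 0.127, and was called without tau acetate mouse 1 (0.0863). Slc32a1, the vesicular GABA transporter, lay between 69.0 and 76.5 CPM as group means, Abat, which degrades GABA, between 238 and 251 CPM and Slc6a11, the GAT3 transporter of astrocytes, between 111 and 119 CPM. In every one of the 5 genes the difference of the diet effects was below 0, between -0.16 and -0.04 on the log2 scale, with no call.

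At the postsynapse, gephyrin (Gphn) anchors GABA-A receptors and Nlgn2 is the adhesion protein of inhibitory contacts. Gphn read 92.6, 90.6 and 95.6 CPM in PBS control, 80.0, 86.0 and 86.8 in PBS acetate, 93.7, 88.7 and 91.8 in tau control, and 87.5, 84.6 and 87.2 in tau acetate. Under both injections all acetate mice lay below all control-diet mice. The log2 differences were -0.14 ± 0.05 in PBS-injected mice (adjusted p = 0.135 by edgeR) and -0.08 ± 0.05 in tau-injected mice (adjusted p = 0.619). Neither was called. Nlgn2 was 246 ± 11.9 CPM in PBS control and 268 ± 10.6 CPM in PBS acetate, a log2 difference of 0.13 ± 0.05 (adjusted p = 0.183), and 261 to 263 CPM in the tau groups.

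Of the chloride transporters, Slc12a2 fell on the acetate diet in PBS-injected mice. Slc12a2 (NKCC1, the importer, which oligodendrocytes and other glia also use) read 133, 122 and 107 CPM in PBS control, 99.8, 92.3 and 79.6 in PBS acetate, 83.3, 83.2 and 108 in tau control, and 118, 112 and 98.2 in tau acetate. All PBS acetate mice lay below all PBS control mice, whereas tau control mouse 3 overlapped both PBS control and tau acetate. Slc12a2 fell by 25.0% in PBS acetate, a log2 fold change of -0.42 ± 0.12 (SE, adjusted p = 0.0798 by edgeR). In tau-injected mice the log2 difference was 0.26 ± 0.12 (adjusted p = 0.469). The test of the difference of the diet effects gave 0.68 ± 0.17 (adjusted p = 0.117 by edgeR), and DESeq2 called it (adjusted p = 0.00394). Tau against PBS on the control diet gave -0.40 ± 0.12 (adjusted p = 0.356), called by DESeq2 alone (adjusted p = 0.0639). The fall in PBS-injected mice was not called without the filter on low counts (adjusted p = 0.148), nor without any 1 of the 6 compared mice (adjusted p from 0.108 to 0.239) or tau acetate mouse 2 (0.106). The difference of the diet effects was called without PBS control mouse 3, tau control mouse 3 or tau acetate mouse 3.

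The markers of oligodendrocytes had a median difference of the same sign as Slc12a2 in each comparison. All 10 were measured, with none at 0, and they summed to 7420 to 9582 CPM in PBS control, 4658 to 6422 in PBS acetate, 4926 to 5975 in tau control and 5627 to 9029 in tau acetate. Their median log2 fold change was -0.55 for acetate in PBS-injected mice, where 3 of 10 were called, and 0.52 for acetate in tau-injected mice. It was -0.62 for tau on the control diet, 0.46 for tau on the acetate diet and 1.07 for the difference of the diet effects, with no call by edgeR in these 4. Before adjustment 8, 10, 6 and 10 of the 10 markers had p below 0.05 in these comparisons, and DESeq2 called 0, 1, 0 and 10. The markers of oligodendrocyte precursors stayed between 100 and 124 CPM in all mice. The part of oligodendrocytes in the Slc12a2 reading was not tested.

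**Figure D3:**
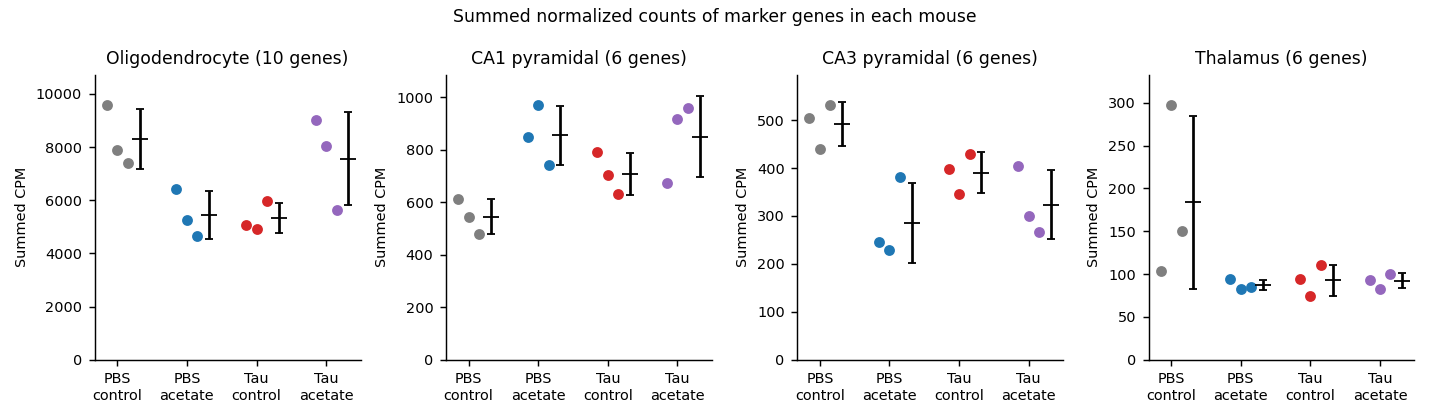
Summed CPM (axis from 0) of marker genes of oligodendrocytes, CA1, CA3 and thalamus in each mouse, with the mean and SD of each group of 3. Oligodendrocyte markers were 7420 to 9582 in PBS control and 4658 to 6422 in PBS acetate, and thalamus markers reached 297 in PBS control mouse 2.

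Slc12a5 (KCC2, the neuronal extruder) read 559, 609 and 585 CPM in PBS control and 631, 654 and 635 CPM in PBS acetate. It was the least variable member, and the groups did not overlap. The log2 difference was 0.13 ± 0.05, just outside the threshold (adjusted p = 0.103 by edgeR, 0.0542 by DESeq2), and it was called without PBS control mouse 2, tau control mouse 1 or tau control mouse 2. The tau groups were 616 ± 11.9 CPM on the control diet and 623 ± 2.26 CPM on acetate. The log2 ratio of Slc12a5 to Slc12a2 was 2.28 ± 0.19 in PBS control, 2.83 ± 0.17 in PBS acetate, 2.76 ± 0.23 in tau control and 2.51 ± 0.14 in tau acetate (SD, n = 3 each). PBS control (2.07 to 2.45) overlapped neither PBS acetate (2.66 to 2.99) nor tau control (2.50 to 2.92). The mean ratio was 0.55 above its control with acetate in PBS-injected mice and 0.48 above it with tau on the control diet, each with an exact two-sided permutation p of 0.1, the smallest that 3 mice against 3 allow. In tau-injected mice acetate against control gave -0.25, and on acetate tau against PBS gave -0.31, each with an exact p of 0.2. Over the 4 comparisons the adjusted p was 0.2 for each. As no exact p can fall below 0.1, no ratio could have passed the threshold, and this test cannot decide whether the ratio differed.

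**Figure D4:**
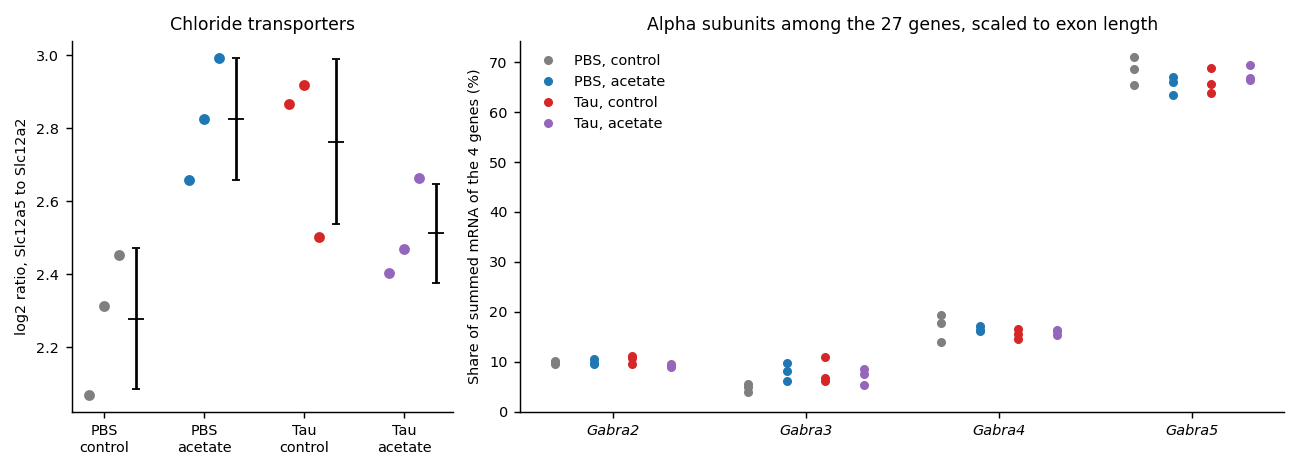
Left, log2 ratio of Slc12a5 to Slc12a2 in each mouse with the mean and SD of each group of 3; right, share of each gene in the summed exon-scaled mRNA of Gabra2 to Gabra5, 1 point per mouse. The ratio was 2.07 to 2.45 in PBS control and 2.66 to 2.99 in PBS acetate, and Gabra5 had the highest share in every mouse.

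Among interneuron genes, Reln was the single one called. Reelin is a secreted glycoprotein, made in the adult hippocampus by neurogliaform and other interneurons and by Cajal-Retzius cells. Reln read 63.5, 60.0 and 53.0 CPM in PBS control, 94.6, 83.4 and 71.8 in PBS acetate, 69.2, 85.6 and 76.0 in tau control, and 67.9, 75.7 and 87.7 in tau acetate. The 3 PBS control mice were the lowest of all 12, and the other groups overlapped. On acetate Reln rose by 41.4% in PBS-injected mice, a log2 fold change of 0.50 ± 0.12 (SE, adjusted p = 0.0447 by edgeR). It was not called without PBS control mouse 3 (adjusted p = 0.156), PBS acetate mouse 1 (0.121) or PBS acetate mouse 2 (0.17). In tau-injected mice the log2 difference was 0.00 ± 0.12 (adjusted p = 0.999), and the test of the difference of the diet effects gave -0.50 ± 0.17 (adjusted p = 0.227), called by DESeq2 (0.085) and without tau acetate mouse 3. Tau against PBS on the control diet gave 0.39 ± 0.12 (adjusted p = 0.364). Of 5 Cajal-Retzius markers, 3 passed the filter, while Lhx5 and Lhx1 had at most 10 counts in a library. The 3 summed to 33.8 to 37.0 CPM in PBS control, 37.3 to 45.9 in PBS acetate, 34.3 to 44.5 in tau control and 36.4 to 45.2 in tau acetate, and 1 of them, Ndnf, which neurogliaform cells share, was called higher in PBS acetate. Trp73, a defining factor of Cajal-Retzius cells, was 6.61 ± 0.757 CPM in PBS control and 3.89 ± 0.994 CPM in PBS acetate (SD, n = 3 each), without overlap, a log2 difference of -0.77 ± 0.34 that was not called (adjusted p = 0.229 by edgeR). Cacna2d2 differed by 0.34 ± 0.20 (adjusted p = 0.361). Their part in the Reln rise was not tested.

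The 6 further interneuron genes were not called in any comparison by edgeR in the fit over 12 mice. Pvalb, of fast-spiking basket cells, was 28.0 ± 2.52 CPM in PBS control, 26.6 ± 2.15 in PBS acetate, 26.9 ± 1.19 in tau control and 26.9 ± 0.613 in tau acetate (SD, n = 3 each). Lamp5, of neurogliaform cells, had group means of 37.9 to 39.3 CPM, and Lhx6, the factor of interneurons from the medial ganglionic eminence, 16.4 to 18.0 CPM. Erbb4, the neuregulin receptor of interneurons, had 68.3 to 75.0 CPM. For Dlx1, a factor of interneuron development, the 3 tau control mice (12.9 to 15.3 CPM) lay above the 3 PBS control mice (10.2 to 12.5 CPM), with a log2 difference of 0.28 ± 0.13 (adjusted p = 0.503 by edgeR). For acetate in PBS-injected mice Dlx1 was called without PBS acetate mouse 3 (adjusted p = 0.093). Kit was 97.5 ± 44.2 CPM in tau control and 56.5 ± 7.92 CPM in tau acetate. Its log2 difference of -0.79 ± 0.30 was the largest of the 27 in tau-injected mice, was not called (adjusted p = 0.408), and included the high value of tau control mouse 2.

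In the 4 comparisons after the first, calls among the 27 were few. Acetate against control in tau-injected mice gave 0 calls by edgeR and 1 by DESeq2 (Gabra2). Of all genes, edgeR called 0.0611%, while DESeq2 called 2.14% of the 8212 genes to which it gave an adjusted p. DESeq2 gave none to Gabrg1, Lhx6 and Dlx1 here. Before adjustment 3 of the 27 had p below 0.05 (Gabra2, Gabrg1 and Kit, all lower). Of all genes 10.9% did in either direction (806 of 14742 higher and 797 lower). The groups did not overlap for 5, all lower, against 14.4% of all genes in either direction (982 of 14742 higher and 1145 lower). Of the 27, 19 had a log2 difference below 0 and the median was -0.05.

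Tau against PBS on the control diet gave 0 calls by edgeR and 1 by DESeq2 (Slc12a2). Of all genes, edgeR called 0.0136%, while DESeq2 called 0.694% of the 12398 genes to which it gave an adjusted p. Before adjustment 6 of the 27 had p below 0.05, Slc12a2 lower and Reln, Gad2, Gabrg1, Gabra3 and Dlx1 higher, against 9.65% of all genes. The groups did not overlap for 8, all higher, against 13.5% of all genes in either direction (975 of 14742 higher and 1008 lower). The median log2 difference was 0.09. This comparison and the acetate comparison in PBS-injected mice share the PBS control mice. For Gabrg1, Reln, Slc12a2 and Gabbr2, the 4 members called for acetate, the log2 values side by side were 0.31 and 0.22, 0.50 and 0.39, -0.42 and -0.40, and -0.21 and -0.04, for acetate and for tau. The CA1 markers also lay higher in tau control (630 to 792 CPM) than in PBS control (477 to 612 CPM) and the CA3 markers lower (345 to 429 against 440 to 531 CPM). Their part in the values of Reln, Gad2, Gabra3 and Dlx1 was not tested.

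Tau against PBS on the acetate diet gave 0 calls by edgeR and 1 by DESeq2 (Gabrg1), against 0.136% of all genes by edgeR and 0.814% by DESeq2. Before adjustment Gabrg1 was lower and Gabbr2 and Slc12a2 higher at p below 0.05, 3 of 27 against 10.3% of all genes, and 4 of 27 did not overlap between the groups against 16.2%. For the difference of the diet effects 1 of 27 was called by edgeR and 3 by DESeq2, against 1.56% of all genes by edgeR and 2.96% by DESeq2. Before adjustment 7 of 27 had p below 0.05, 2 above 0 and 5 below, against 13% of all genes. The median was -0.12 over the 27 and -0.01 over all genes, and 21 of the 27 lay below 0.

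**Figure D5:**
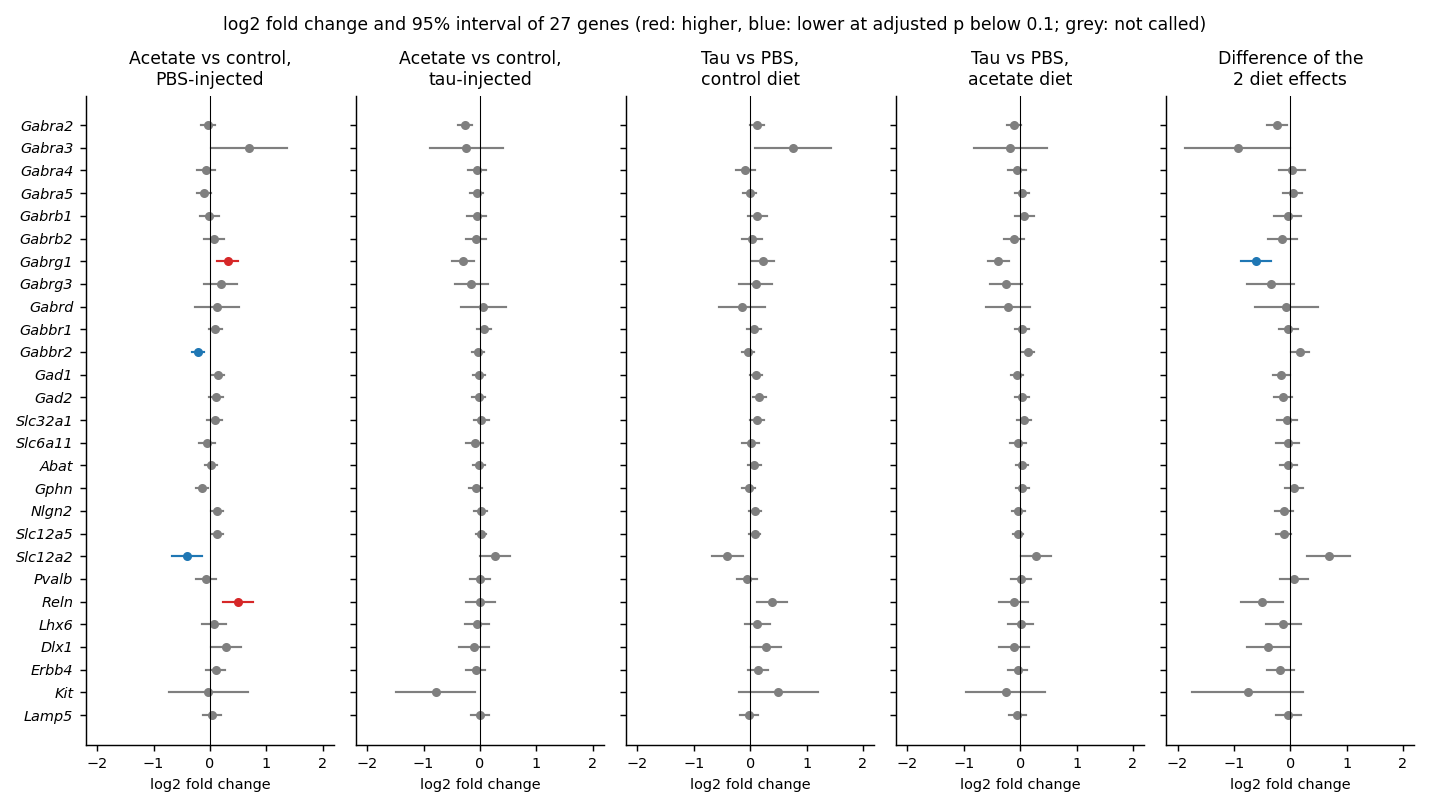
The log2 fold change and 95% interval of each of the 27 genes in the 5 comparisons, red or blue where called higher or lower at an adjusted p below 0.1 and grey otherwise. Calls stand in the PBS diet comparison (Gabrg1, Reln, Gabbr2 and Slc12a2) and in the difference of the diet effects (Gabrg1), and Gabra3 and Kit have the widest intervals.

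A wider list of 57 inhibitory genes outside the 27, of which 52 were tested, was read beside them. In PBS-injected mice 6 of the 52 were called on acetate, 4 higher and 2 lower, against 8.84% of all genes, so that the count is no result about the list. The receptor-associated protein Shisa7 rose by 0.24 ± 0.06 on the log2 scale (adjusted p = 0.0402 by edgeR). The interneuron genes Cplx3, Ndnf and Npas1 rose by 0.99 ± 0.26 (0.0455), 0.49 ± 0.14 (0.0512) and 0.45 ± 0.12 (0.0433). Cplx3 had a low level, 1.73 ± 0.464 CPM in PBS control and 3.48 ± 0.303 CPM in PBS acetate (SD, n = 3 each). Cplx3 is a complexin and Npas1 a transcription factor, and Ndnf marks neurogliaform cells, which also make Reln. Lamp5, the member named above for neurogliaform cells, differed by 0.04 ± 0.07 in the same comparison (adjusted p = 0.802 by edgeR). The part of these cells in the rises was not tested. The genes that fell were Kcnc2 and Kcnc1, potassium channels of fast-spiking cells, at -0.39 ± 0.07 (0.0146) and -0.22 ± 0.06 (0.0407). Both are also expressed outside the hippocampus. The thalamus markers summed to 103, 297 and 150 CPM in PBS control mice 1, 2 and 3, and to 82.8 to 94.0 CPM in PBS acetate. Their part in the values of Kcnc2 and Kcnc1 was not tested. In the other comparisons none of the 52 was called by edgeR. At p below 0.05 before adjustment stood 4 of them for acetate in tau-injected mice (10.9% of all genes), 8 for tau on the control diet (9.65%), 2 for tau on the acetate diet (10.3%) and 4 for the difference of the diet effects (13%). DESeq2 called 2, 1, 0 and 2 in the same order, against 2.14%, 0.694%, 0.814% and 2.96% of all genes with an adjusted p. The smallest p before adjustment belonged to Cnr1, the cannabinoid receptor of CCK cells, for acetate in tau-injected mice (-0.22 ± 0.06, adjusted p = 0.204). It belonged to the interneuron peptide gene Vip for tau on the control diet (0.69 ± 0.18, 0.284), to the tachykinin gene Tac1 for tau on the acetate diet (0.48 ± 0.21, 0.442) and to Ndnf for the difference of the diet effects (-0.68 ± 0.19, 0.117). Gabra6, Gabre, Gabrq, Gabrr1 and Lhx8 had at most 7 counts in any library and were not tested.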

How the data were processed

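Poly(A) RNA-seq was performed on dorsal hippocampus from 12 mice. The authors aligned reads to GRCm38 with STAR 2.5.2a, used SAMtools 1.1, and deposited raw counts per gene, made with HTSeq 0.9.1 on exons of the reverse strand, without normalization. The annotation release is not given in the sources used here. Groups and mouse numbers came from the labels. Mice are separate samples, 3 per group, and p-values measure the spread between them.

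From these counts, genes were filtered with filterByExpr (minimum count 10, total 15), normalised by TMM and fitted with edgeR 4.0.16 (robust quasi-likelihood, R 4.3.3), 1 mean per group over 12 mice. The Benjamini-Hochberg adjustment covered 14742 genes, and genes were called below an adjusted p of 0.1. The common coefficient of variation between mice was 7.253%, which limits precision for abundant genes more than depth does. SE were derived from the F statistic, and log2 ratios used a prior count of 2. The functions were tested on simulated data. Alternatives were DESeq2 1.42.0 and its size factors, no filter, the 6 compared mice alone, an adjusted p below 0.05, a replicate block and each mouse left out. Exon lengths and positions came from GENCODE M21, and promoters from RefSeq, which held a window for 24 of the 27 genes.

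The members and all gene lists were chosen with earlier results of these data known. By the naming rule, values of every mouse are given for members called in at least 1 comparison and, in roles with none, for the member with the smallest p. Genes of the wider list are named where called or, in comparisons with none, for the smallest p. Further values of single mice, such as those of Gabra2, Gabra3, Gad1, Slc12a5 and Kit, were chosen after they were seen. Some inhibitory genes outside the 27 are not reported here. The other experiments of the study were not analysed here.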

Additional observations from a re-analysis of the deposited data

Results flagged for a closer look

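The effect of the acetate diet on Gabrg1 differed between injections. It was a log2 fold change of 0.31 in PBS-injected mice and -0.30 in tau-injected mice, and the difference, -0.61, passed edgeR's quasi-likelihood test of the interaction (adjusted p = 0.0466). Neither pair of groups overlapped, which restates the same values. Over all genes, 26.3% did not overlap in PBS-injected mice and 14.4% in tau-injected mice. The difference was not called without PBS acetate mouse 2, tau control mouse 2 or tau acetate mouse 1. No other member passed edgeR's test of the interaction over the 12 mice, where 1.56% of all genes passed. DESeq2 called Gabrg1 (adjusted p = 0.0140) and also Slc12a2 (0.00394) and Reln (0.085).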

How the results depend on the processing

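Over the alternatives tried, no result changed direction among those called. The count of members called for acetate in PBS-injected mice was 4. It was 2 at an adjusted p below 0.05 (Gabbr2 and Reln) and 0 to 5 with 1 mouse left out. For acetate in tau-injected mice the count was 0, and it was 1 without the filter and 1 with DESeq2 (Gabra2 each time), with 0 to 1 over single mice left out. For tau on the control diet DESeq2 gave 1 in place of 0, and no mouse left out gave a call. For tau on the acetate diet DESeq2 gave 1, and single mice left out gave 0 to 1. For the difference of the diet effects DESeq2 gave 3 in place of 1, and single mice left out gave 0 to 3. The causes were not tested. A prior count of 0.5 did not move the chloride ratio beyond the spread between mice. Whether replicate numbers pair the mice was not settled. For acetate in PBS-injected mice, deviations of same-numbered mice correlated at 0.07, 0.09 and 0.14, and those of differently numbered mice at -0.09 to 0.01. In the other comparisons same-numbered mice correlated below 0. With the replicate block the count for acetate in PBS-injected mice was 4 and for the difference of the diet effects 1. The intervals given describe the precision of each value and are not limits of detection. With 3 mice a group, the lack of a call does not show that a gene was unchanged.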
